A study of Arabidopsis thaliana with 6 samples.

Results

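The tau and phi glutathione S-transferases are the 2 large plant-specific classes of the glutathione S-transferase family. The 28 tau genes, GSTU1 to GSTU28, and 12 phi genes, GSTF2 to GSTF14 without GSTF12, were found by gene identifier, which gave 40 of the 27444 genes in the files. The rule uses names and not measured values, although the family was taken up with earlier results of these data known. RNA of Arabidopsis thaliana seedlings was sequenced in 3 lon1-2atg5-1 libraries and 3 atg5-1 libraries, so that the comparison gives the difference in a LON1 mutant with ATG5 mutated in both groups. Both groups are in the Columbia-0 background, carry the atg5-1 T-DNA insertion in an autophagy gene, and were grown in long days under normal conditions. The lon1-2atg5-1 group carries in addition the lon1-2 T-DNA insertion in the gene of the mitochondrial Lon1 protease. Each genotype is a single line, and no value below refers to Col-0 or to the lon1-2 single mutant. Seedlings were 7 days old by the description of the series, while the methods of the study give an older age.

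Glutathione S-transferases join the tripeptide glutathione to electrophilic compounds, among them herbicides, lipid peroxidation products and plant defence metabolites, and the conjugates are then moved into the vacuole by ABCC transporters. Some members act as glutathione peroxidases, and others only bind a ligand. In plants many tau and phi genes lie in tandem arrays and are known for rapid induction by xenobiotics, oxidative stress, salicylic acid and oxylipins, in part through TGA transcription factors that bind the letters TGACG.

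The libraries held 21964283 to 23929531 counts in lon1-2atg5-1 and 22154558 to 22972992 counts in atg5-1. LON1 had 196, 126 and 95 counts in lon1-2atg5-1 and 671, 528 and 602 in atg5-1, and so was lower in the group labelled with the lon1-2 mutation. ATG5, interrupted in both genotypes, had 1319, 930 and 636 counts in lon1-2atg5-1 and 516, 520 and 436 in atg5-1. It was higher in lon1-2atg5-1 without overlap, at a log2 fold change of 0.98 ± 0.23 (SE, adjusted p = 0.00786 in edgeR). The cause was not tested. The lon1-2atg5-1 libraries were less alike, with a biological coefficient of variation of 0.138, against 0.0637 in atg5-1. The spread was also larger over the members than over all genes tested. The median SD of log2 normalized counts over the members tested was 0.367 in lon1-2atg5-1 and 0.153 in atg5-1, against 0.141 and 0.0992 in the same genotypes over all genes tested. Replicate 1 of lon1-2atg5-1 was the highest of its genotype for 30 of 38 members (78.9%), against 37.0% of all genes tested, and lay over 2-fold above replicate 3 for 10 members (26.3%), against 2.61% of all genes. Calls below that change without replicate 1 or replicate 3 of lon1-2atg5-1 are given with the gene.

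Of the 40 members, 38 passed the filter on low counts, and 14 of them were higher and 8 lower in lon1-2atg5-1 than in atg5-1. A gene was called higher or lower at an adjusted p under 0.05 (edgeR quasi-likelihood test, Benjamini-Hochberg adjustment over all genes tested) with a fold change over 1.5. By this rule 27.7% of all 20157 genes tested were called, 14% higher and 13.7% lower, against 36.8% and 21.1% of the members tested. The other 16 members were not called, of which 1 higher and 3 lower ones passed the adjusted p with a smaller fold change. The median log2 fold change was 0.45 over the members tested and −0.00034 over all genes. Libraries of the genotypes did not overlap for 15 members above (39.5%) and 11 below (28.9%), against 32.3% and 30.9% of all genes tested, or 68.4% of members in either direction against 63.2% of all genes. GSTU3, GSTU11 and GSTF13 reached the count minimum in all 3 libraries of a single genotype, so these members entered the test through the genotype in which they are high.

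**Figure D1:**
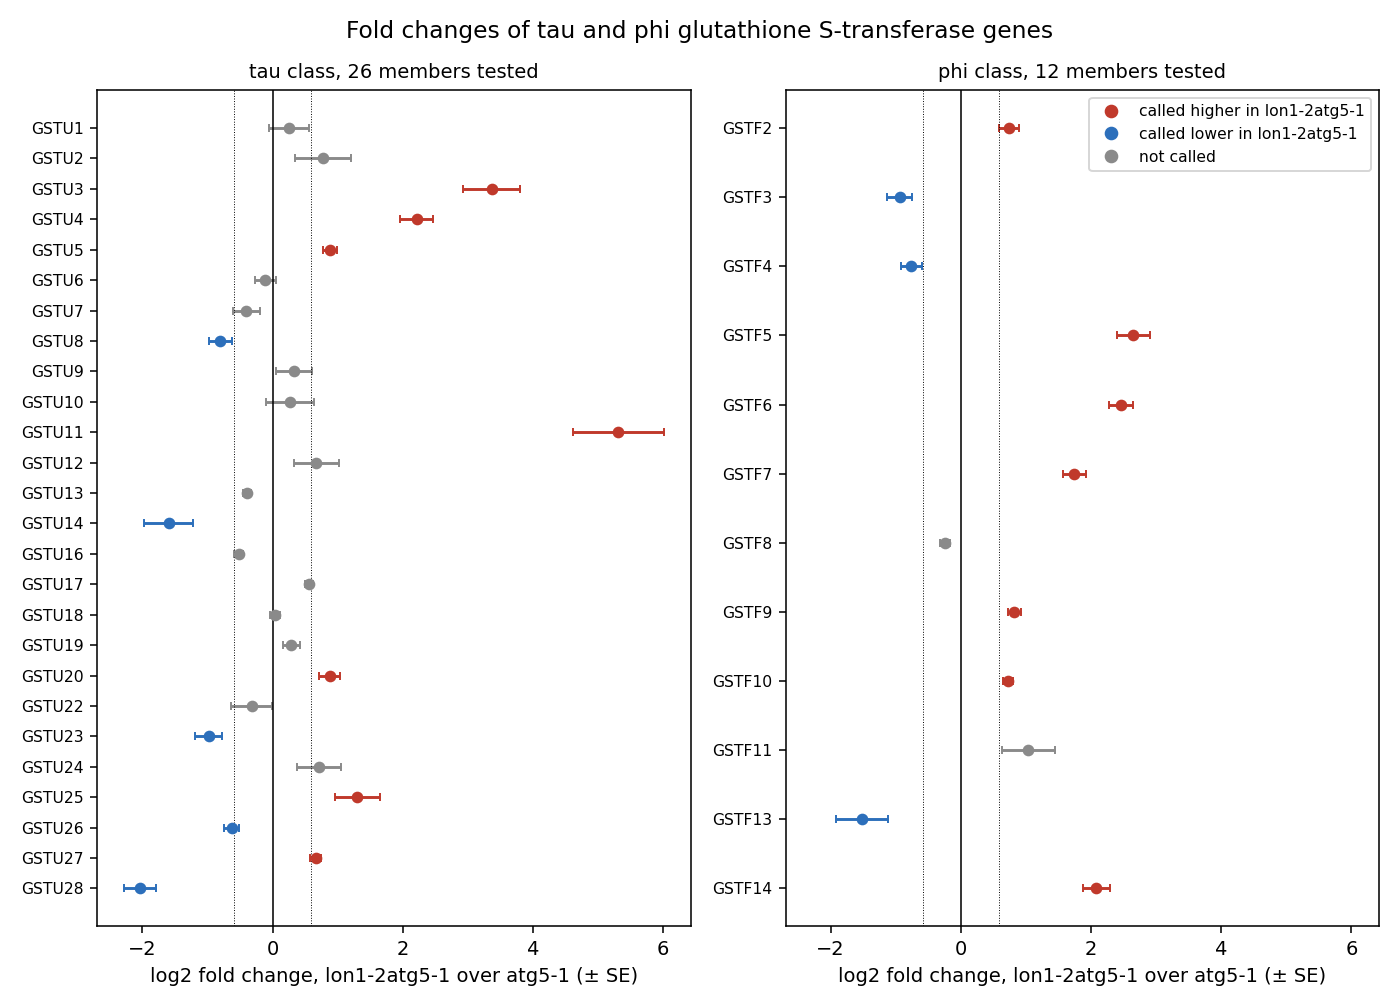
The log2 fold change of lon1-2atg5-1 over atg5-1 is plotted for each member tested, tau on the left and phi on the right; bars are standard errors, dotted lines mark a fold change of 1.5 either way, and colour gives the call. Values run from −2.03 for GSTU28 to 5.31 for GSTU11, and 7 tau and 7 phi genes are called higher.

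A larger share of the phi than of the tau members was called. In the phi class 7 of 12 members were higher and 3 lower, with a median log2 fold change of 0.78. In the tau class 7 of 26 tested were higher and 5 lower, with a median of 0.28. Among the tau genes the count rested on replicate 3 of lon1-2atg5-1: without that library 13 were called higher, and the phi count became 8. Over all genes the same fit called 3249 of 20401 higher, against 2822 of 20157 with all libraries. The tau median was 0.028 without replicate 1 of lon1-2atg5-1 and 0.56 without replicate 3, and the phi median 0.70 and 0.87 in the same fits. No test was run between the classes, because genes are not replicates.

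Transcript levels per length, as FPKM, were highest for a few phi genes and the tau gene GSTU19 in both genotypes. GSTF2, GSTF6, GSTF7, GSTF8, GSTF9 and GSTF10 together made up 74.0% ± 1.12 of the summed FPKM of the family in lon1-2atg5-1 and 64.1% ± 1.33 in atg5-1 (SD, n = 3 each). The order of levels changed at GSTF6, which ranked 2 of 40 in lon1-2atg5-1 and 6 of 40 in atg5-1. GSTU19 was the most abundant tau gene in both genotypes, ranking 5 of 40 in lon1-2atg5-1 and 4 of 40 in atg5-1.

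**Figure D2:**
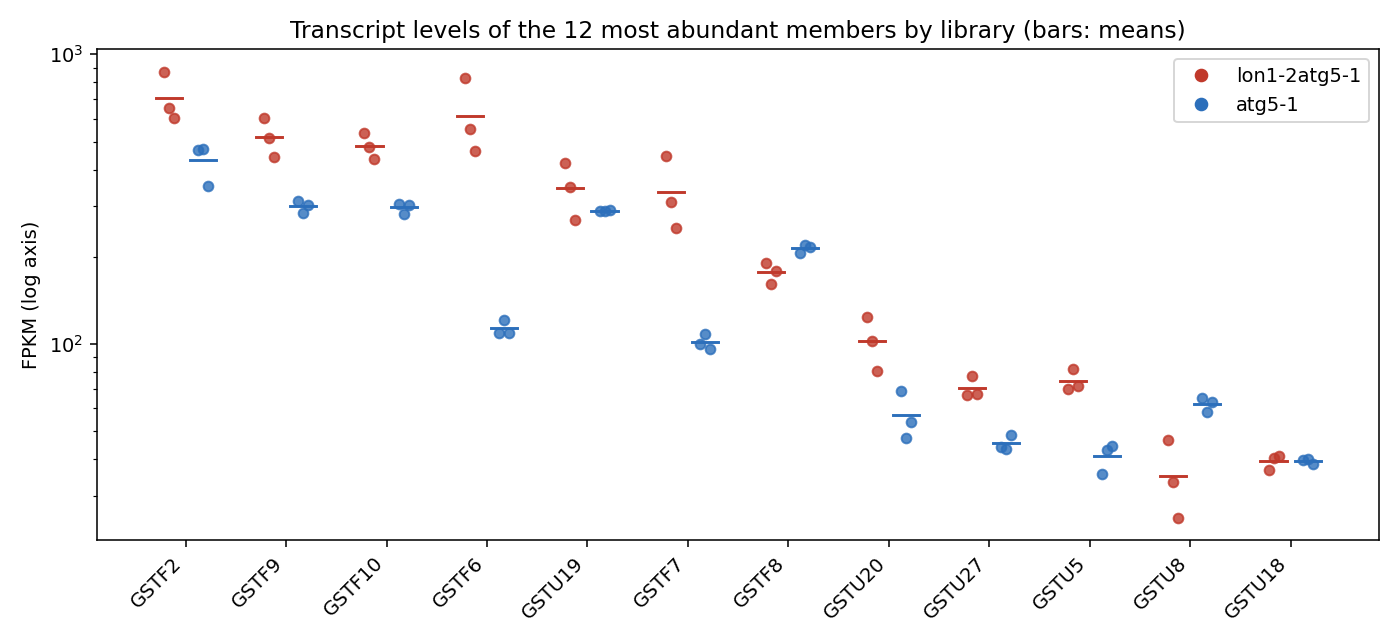
FPKM on a log axis is shown for the 12 members with the highest level averaged over both genotypes; each point is a library and each short line the mean of 3. The lon1-2atg5-1 points lie above all atg5-1 points for GSTF2, GSTF9, GSTF10, GSTF6, GSTF7, GSTU20, GSTU27 and GSTU5, and below them for GSTF8 and GSTU8.

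The cluster GSTF4 to GSTF7 held GSTF5 and GSTF6, the members with the largest changes of the phi class. It spans 7894 bp of chromosome 1, from 658578 to 666471 of the TAIR10.1 build, with its 4 genes on the minus strand. GSTF6 (AT1G02930) takes part in camalexin synthesis by joining glutathione to a nitrile intermediate. GSTF6 had 22048, 14395 and 13127 counts in lon1-2atg5-1 and 2981, 3197 and 2871 in atg5-1. Every lon1-2atg5-1 library lay above every atg5-1 library, with replicate 1 the highest. The log2 fold change was 2.46 ± 0.19 (SE, adjusted p = 3.86e-05 in edgeR), and the level was 614 ± 190.1 FPKM in lon1-2atg5-1 and 113 ± 6.97 FPKM in atg5-1.

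GSTF7 (AT1G02920), a gene known for its response to salicylic acid and pathogens, had 12131, 8226 and 7314 counts in lon1-2atg5-1 and 2780, 2921 and 2588 in atg5-1. The groups did not overlap, and replicate 1 of lon1-2atg5-1 was again the highest. In the test GSTF7 had a log2 fold change of 1.74 ± 0.18 (SE, adjusted p = 0.000126 in edgeR). Both genes together held 24.4% ± 2.45 of the family's FPKM in lon1-2atg5-1 and 9.47% ± 0.544 in atg5-1 (SD, n = 3 each).

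GSTF5 (AT1G02940) had far fewer reads than these neighbours but a change of like size. It had 204, 168 and 117 counts in lon1-2atg5-1 and 29, 27 and 22 in atg5-1, without overlap. This was a log2 fold change of 2.65 ± 0.25 (SE, adjusted p = 9.89e-05 in edgeR). GSTF4 (AT1G02950) was the only gene of the cluster that was lower. It had 58, 41 and 57 counts in lon1-2atg5-1 and 91, 82 and 92 in atg5-1, again without overlap, and a log2 fold change of −0.76 ± 0.17 (SE, adjusted p = 0.00585 in edgeR). An annotated gene on the opposite strand, which has no entry in the files, overlaps 288 bp of GSTF4.

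Coding sequences of GSTF6 and GSTF7 are 94.3% identical, as are those of GSTF2 and GSTF3 at 94.5%, so reads can be split between the genes of such a pair. The first 90 coding bases are shown for these pairs to give the scale of the difference, with the bases that differ within the pair in capitals (RefSeq annotation of TAIR10.1, minus strand of each gene, GSTF6 chr1:662102-662191, GSTF7 chr1:659616-659705, GSTF2 chr4:1111442-1111531, GSTF3 chr2:852017-852106).
GSTF6: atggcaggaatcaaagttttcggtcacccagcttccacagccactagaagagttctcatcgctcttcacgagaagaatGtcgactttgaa
GSTF7: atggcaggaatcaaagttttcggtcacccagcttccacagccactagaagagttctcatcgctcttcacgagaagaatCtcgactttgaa
GSTF2: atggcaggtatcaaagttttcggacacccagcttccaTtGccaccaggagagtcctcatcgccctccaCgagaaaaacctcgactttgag
GSTF3: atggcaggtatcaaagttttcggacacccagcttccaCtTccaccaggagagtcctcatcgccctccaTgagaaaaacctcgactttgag
Over the whole coding sequence GSTF6 and GSTF7 differ at 36 aligned positions, 3 of them gaps, and share an identical run of 116 bases. GSTF2 and GSTF3 differ at 35 positions with a longest identical run of 74 bases.

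The bases before the starts of GSTF5 and GSTF7 are shown because these genes of the cluster changed in the same direction. Each run is the 250 bases upstream of the annotated start (TAIR10.1, minus strand, GSTF5 chr1:664291-664540, GSTF7 chr1:659981-660230). Capitals mark TGACG or the letters TTGAC, the core bound by WRKY factors, or the G-box CACGTG, on either strand.
GSTF5: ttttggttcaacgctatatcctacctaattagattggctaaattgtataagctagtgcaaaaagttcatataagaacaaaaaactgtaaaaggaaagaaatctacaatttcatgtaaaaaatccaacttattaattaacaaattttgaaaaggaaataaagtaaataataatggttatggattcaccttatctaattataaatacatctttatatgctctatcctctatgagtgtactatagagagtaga
GSTF7: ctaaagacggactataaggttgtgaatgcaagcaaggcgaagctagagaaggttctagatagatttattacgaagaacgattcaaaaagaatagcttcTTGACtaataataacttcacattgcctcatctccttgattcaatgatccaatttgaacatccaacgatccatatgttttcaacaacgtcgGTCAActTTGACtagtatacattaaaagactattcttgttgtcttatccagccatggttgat
GSTF7 holds TTGAC, and none of these letters stand in the GSTF5 window. The letters are common, since TTGAC stands in 44.9% of the 250-base windows of 27443 genes.

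GSTF2 (AT4G02520), a gene induced by ethylene whose protein binds camalexin and other indole compounds, was the most abundant member in both genotypes. It had 28768, 21147 and 21199 counts in lon1-2atg5-1 and 15846, 15389 and 11410 in atg5-1. The groups did not overlap. The level was 709 ± 142.2 FPKM in lon1-2atg5-1 and 430.1 ± 69.3 FPKM in atg5-1 (SD, n = 3 each). In the test this gave 0.75 ± 0.15 on the log2 scale (SE, adjusted p = 0.00419 in edgeR). TOC159, a subunit of the protein import machinery of the chloroplast, overlaps 890 bp of GSTF2 exons on the opposite strand and was not called, with a log2 fold change of 0.12.

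GSTF3 (AT2G02930), the near-copy of GSTF2 on another chromosome, went the other way. It had 101, 76 and 60 counts in lon1-2atg5-1 and 148, 160 and 149 in atg5-1, without overlap. Its log2 fold change was −0.94 ± 0.19 (SE, adjusted p = 0.00366 in edgeR). Its counts were far below those of GSTF2, and with shared sequence between the genes its value is uncertain.

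The tandem pair GSTF9 and GSTF10, whose proteins have glutathione peroxidase activity, lies on chromosome 2 from 13138882 to 13142676. GSTF9 (AT2G30860) had 16746, 13872 and 13021 counts in lon1-2atg5-1 and 8801, 7783 and 8264 in atg5-1. Its log2 fold change was 0.82 ± 0.10 (SE, adjusted p = 0.000323 in edgeR). GSTF10 (AT2G30870) differed by a like amount, with counts of 13583, 11886 and 11754 in lon1-2atg5-1 and 7928, 7090 and 7597 in atg5-1, with a log2 fold change of 0.73 ± 0.079 (SE, adjusted p = 0.000182 in edgeR). Neither gene had overlapping groups.

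The remaining phi genes lie alone in the genome and did not share a direction. GSTF14 (AT1G49860), an atypical phi gene, had 176, 144 and 164 counts in lon1-2atg5-1 and 54, 28 and 33 in atg5-1. Its log2 fold change was 2.08 ± 0.21 (SE, adjusted p = 0.000131 in edgeR), without overlap. GSTF13 (AT3G62760) had 6, 4 and 12 counts in lon1-2atg5-1 and 25, 16 and 23 in atg5-1. It was lower, without overlap, by a log2 fold change of −1.52 ± 0.39 (SE, adjusted p = 0.0120 in edgeR), at counts that leave little precision. GSTF8 (AT2G47730), long used as a marker of oxidative stress, passed the adjusted p with a small difference, −0.25 ± 0.081 on the log2 scale (SE, adjusted p = 0.0329 in edgeR). AT2G47720, a gene counted on the same strand, overlaps 219 bp of GSTF8 exons. GSTF11 (AT3G03190), which takes part in the synthesis of aliphatic glucosinolates, had 82, 78 and 28 counts in lon1-2atg5-1 and 25, 32 and 35 in atg5-1. Replicate 3 of lon1-2atg5-1 fell within the atg5-1 range, and GSTF11 was not called, with a log2 fold change of 1.04 and an adjusted p of 0.0578 in edgeR. Without that library it was called, at 1.40. NAC045 overlaps all 934 exonic bp of GSTF11 on the opposite strand and was not called.

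The cluster GSTU1 to GSTU7 spans 14603 bp of chromosome 2, from 12617936 to 12632538, with 7 genes on the minus strand. GSTU3, GSTU4 and GSTU5, which stand next to each other, were higher, and the genes at both ends of the array were not called. GSTU3 (AT2G29470) had 85, 50 and 75 counts in lon1-2atg5-1 and 3, 13 and 4 in atg5-1. The groups were far apart, with a ratio of summed counts of 10.6 (95% counting interval 6.66 to 17.6) and a log2 fold change of 3.37 ± 0.44 (SE, adjusted p = 0.000411 in edgeR). GSTU4 (AT2G29460) had 1039, 631 and 560 counts in lon1-2atg5-1 and 128, 182 and 170 in atg5-1. All its lon1-2atg5-1 libraries were above all atg5-1 libraries, at a log2 fold change of 2.22 ± 0.25 (SE, adjusted p = 0.000221 in edgeR).

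GSTU5 (AT2G29450), an auxin-inducible gene, was the most abundant of the cluster. It had 1990, 2293 and 2180 counts in lon1-2atg5-1 and 1039, 1212 and 1253 in atg5-1, without overlap and with replicate 1 of lon1-2atg5-1 the lowest of its genotype. The log2 fold change was 0.89 ± 0.11 (SE, adjusted p = 0.000305 in edgeR). GSTU1, GSTU2, GSTU6 and GSTU7 had log2 fold changes of 0.25, 0.78, −0.11 and −0.40, and the groups overlapped for each. Without replicate 3 of lon1-2atg5-1 GSTU2 was called higher at 1.16, and without replicate 1 GSTU7 was called lower at −0.67. The lon1-2atg5-1 libraries of GSTU1 spread widely, with 548, 311 and 205 counts, against 265, 302 and 331 in atg5-1. Replicate 1 was above the atg5-1 range for GSTU1 and replicate 3 below it. GSTU2, GSTU6 and GSTU7 share 669, 398 and 559 bp of exon with genes annotated on the opposite strand.

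**Figure D3:**
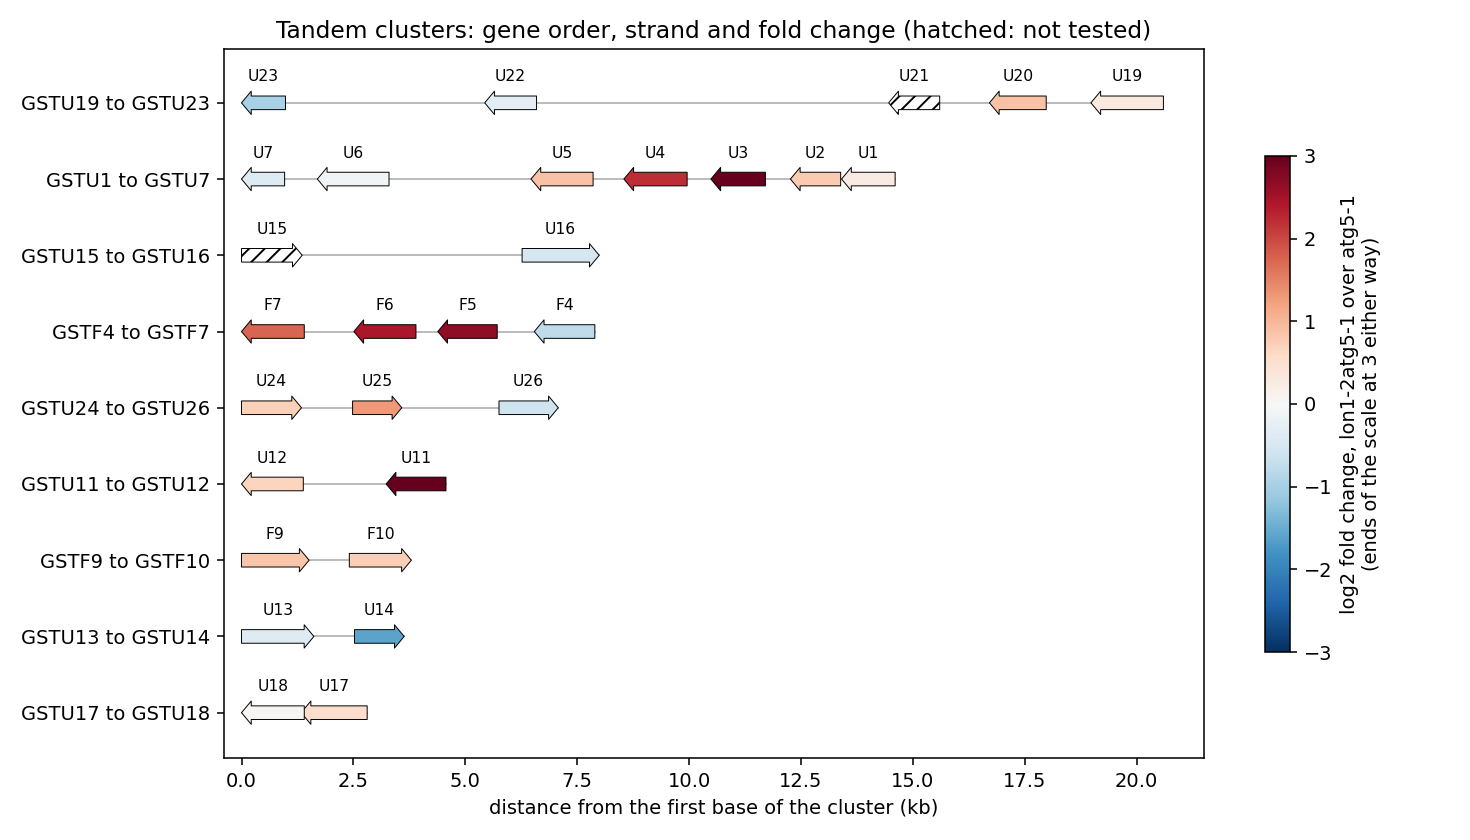
Each row is a tandem cluster and each arrow a gene, drawn to scale by distance in kb from the first base of the cluster and pointing along its strand; colour gives the log2 fold change of lon1-2atg5-1 over atg5-1, and hatched genes were not tested. In the cluster GSTU1 to GSTU7 the 3 strongest reds are GSTU3, GSTU4 and GSTU5, and GSTF4 is the blue gene beside 3 red ones.

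The 250 bases before GSTU3 are shown with those before GSTU11, the tau genes with the largest fold changes (TAIR10.1, minus strand, GSTU3 chr2:12629641-12629890, GSTU11 chr1:26338819-26339068), with capitals as above.
GSTU3: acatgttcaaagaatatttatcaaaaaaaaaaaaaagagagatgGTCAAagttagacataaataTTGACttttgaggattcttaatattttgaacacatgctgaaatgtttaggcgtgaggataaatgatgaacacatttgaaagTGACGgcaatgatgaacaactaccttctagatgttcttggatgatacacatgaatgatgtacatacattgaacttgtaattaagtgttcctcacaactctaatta
GSTU11: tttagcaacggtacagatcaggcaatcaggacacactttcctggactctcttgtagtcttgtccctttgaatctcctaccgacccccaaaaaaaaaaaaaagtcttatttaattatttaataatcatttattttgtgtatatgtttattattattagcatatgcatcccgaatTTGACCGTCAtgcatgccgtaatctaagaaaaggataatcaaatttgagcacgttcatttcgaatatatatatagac
Both hold TGACG once, GSTU11 on the opposite strand and directly after TTGAC.

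GSTU11 (AT1G69930) had the largest fold change of the family. It had 169, 72 and 51 counts in lon1-2atg5-1 and 2, 4 and 1 in atg5-1. Nearly all of its reads came from lon1-2atg5-1, with a ratio of summed counts of 41.9 (95% counting interval 20.1 to 105.2) and a log2 fold change of 5.31 ± 0.70 (SE, adjusted p = 0.000433 in edgeR). At 3.97 ± 2.61 FPKM in lon1-2atg5-1 it ranked 27 of 40 by level in that genotype. GSTU12 (AT1G69920), its tandem neighbour at 41, 24 and 19 counts in lon1-2atg5-1 and 23, 14 and 16 in atg5-1, was not called, with a log2 fold change of 0.67, but was called at 0.90 without replicate 3 of lon1-2atg5-1.

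The cluster GSTU19 to GSTU23 lies on chromosome 1 from 29467412 to 29488007 and holds the most abundant tau gene. GSTU19 (AT1G78380), which conjugates herbicides and is induced by safeners, had 10641, 8589 and 7193 counts in lon1-2atg5-1 and 7385, 7175 and 7193 in atg5-1. Replicate 3 of lon1-2atg5-1 lay within the atg5-1 range in raw counts. In normalized counts it stood just below that range, at 7065 against 7089 to 7322, while replicates 1 and 2 stood above it. GSTU19 was not called (log2 fold change 0.29 ± 0.13, SE, adjusted p = 0.0967 in edgeR). Its share of the summed tau FPKM was 35.5% ± 0.708 in lon1-2atg5-1 and 36.1% ± 0.701 in atg5-1 (SD, n = 3 each).

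GSTU20 (AT1G78370), whose protein interacts with the jasmonate-conjugating enzyme FIN219 and takes part in glucosinolate synthesis, had 3193, 2576 and 2220 counts in lon1-2atg5-1 and 1812, 1211 and 1371 in atg5-1. It was higher without overlap, at a log2 fold change of 0.88 ± 0.16 (SE, adjusted p = 0.00219 in edgeR). GSTU23 (AT1G78320) at the far end of the cluster was lower. It had 30, 23 and 22 counts in lon1-2atg5-1 and 45, 51 and 53 in atg5-1, a log2 fold change of −0.98 ± 0.21 (SE, adjusted p = 0.00519 in edgeR). GSTU22 was not called (−0.32) but was called lower without replicate 1 of lon1-2atg5-1, at −0.79, and GSTU21 with 3, 7 and 2 counts in lon1-2atg5-1 and 4, 1 and 0 in atg5-1 was below the filter.

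GSTU24 and GSTU25, known for the detoxification of trinitrotoluene, form a cluster with GSTU26 on chromosome 1 from 5869543 to 5876620. GSTU25 (AT1G17180) had 1302, 760 and 464 counts in lon1-2atg5-1 and 328, 268 and 435 in atg5-1. The groups did not overlap, but replicate 3 of lon1-2atg5-1 stood close to replicate 3 of atg5-1. The log2 fold change was 1.3 ± 0.35 (SE, adjusted p = 0.0136 in edgeR), and the call was lost without replicate 1 of atg5-1 (adjusted p = 0.0538) and without its replicate 2 (adjusted p = 0.0579).

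GSTU24 (AT1G17170) had 1566, 898 and 511 counts in lon1-2atg5-1 and 638, 593 and 594 in atg5-1. Its lon1-2atg5-1 libraries lay on both sides of the atg5-1 range, and it was not called, with a log2 fold change of 0.71 ± 0.33 (SE, adjusted p = 0.101 in edgeR). Without replicate 3 of lon1-2atg5-1 it was called higher, at 1.04. GSTU26 (AT1G17190) moved against both neighbours. It had 309, 382 and 386 counts in lon1-2atg5-1 and 621, 482 and 576 in atg5-1, a log2 fold change of −0.63 ± 0.12 (SE, adjusted p = 0.00265 in edgeR). Its fold change was close to the threshold of 1.5, and without replicate 1 of lon1-2atg5-1 it was −0.52 and without replicate 1 of atg5-1 −0.58, so that the call was lost.

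The remaining tau genes in clusters form pairs. GSTU14 (AT1G27140), on chromosome 1 beside GSTU13, had 11, 24 and 19 counts in lon1-2atg5-1 and 76, 33 and 57 in atg5-1 and was lower at a log2 fold change of −1.60 ± 0.37 (SE, adjusted p = 0.00738 in edgeR). GSTU13 was lower by less than the fold threshold, at −0.39 (adjusted p = 0.00137 in edgeR), as was GSTU16 at −0.52 (adjusted p = 0.000689 in edgeR). GSTU17, a gene linked to drought and light responses, was higher by less than the fold threshold, at 0.56 (adjusted p = 0.00023 in edgeR), and passed that threshold, at 0.59, without replicate 3 of lon1-2atg5-1. Its neighbour GSTU18 stood at 0.03. GSTU17 and GSTU18 overlap by 71 bp on one strand. GSTU15, the neighbour of GSTU16, had 2, 6 and 0 counts in lon1-2atg5-1 and 0, 2 and 1 in atg5-1 and was below the filter.

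Tau genes outside clusters included the member with the largest decrease. GSTU28 (AT1G53680) had 15, 12 and 13 counts in lon1-2atg5-1 and 65, 58 and 43 in atg5-1. The groups were well apart, at a log2 fold change of −2.03 ± 0.24 (SE, adjusted p = 0.000273 in edgeR). GSTU8 (AT3G09270) was lower at 1429, 999 and 819 counts in lon1-2atg5-1 and 2029, 1755 and 1908 in atg5-1, a log2 fold change of −0.80, and GSTU27 (AT3G43800) was higher at 1570, 1789 and 1679 counts in lon1-2atg5-1 and 1062, 1011 and 1127 in atg5-1, a log2 fold change of 0.66 (adjusted p = 0.00528 for GSTU8 and 0.000346 for GSTU27 in edgeR). GSTU9 and GSTU10 were not called, at 0.34 and 0.27. For both the sign turned without replicate 1 of lon1-2atg5-1, and both were called higher without replicate 3, at 0.60 and 0.61.

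Most clusters were not called as a block, although some runs of neighbours shared a direction. GSTF5 to GSTF7 and GSTU3 to GSTU5 were called higher. GSTU13 and GSTU14 were both lower without overlap, GSTU13 by less than the fold threshold. Of the 9 clusters, counted where neighbouring starts lie at most 20 kb apart, GSTF9 to GSTF10 was the only one with every member called in 1 direction, while GSTF4 to GSTF7, GSTU19 to GSTU23 and GSTU24 to GSTU26 held members called in both. Of the 27 clustered members tested 11 were higher (40.7%) and 4 lower (14.8%). Of the 11 that lie alone 3 were higher (27.3%) and 4 lower (36.4%). Over all genes tested the shares were 14% and 13.7%. Coding identity was 74.0% in the median of the 45 pairs within a cluster, tau and phi together. It was 54.7% over all tau pairs and 52.0% over all phi pairs. By cluster the median ran from 52.1% for GSTF4 to GSTF7 to 83.1% for GSTU15 to GSTU16.

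Summed over each class, the ratio between genotypes was larger for the phi than for the tau genes. The phi sum was 3500, 2690 and 2388 FPKM in lon1-2atg5-1 and 1516, 1502 and 1393 FPKM in atg5-1, a ratio of 1.95 between the means. The groups did not overlap. The tau sum was 1175, 974 and 774 FPKM in lon1-2atg5-1 and 808, 783 and 809 FPKM in atg5-1, a ratio of 1.22. Here replicate 3 of lon1-2atg5-1 was below all 3 atg5-1 libraries, but this order depends on the scaling. As TMM-scaled CPM per kb, the tau sum was 1155, 983 and 804.3 in lon1-2atg5-1 and 788, 784 and 804.2 in atg5-1, so that replicate 3 stood level with the highest atg5-1 library. The tau share of the family sum was 25.1%, 26.6% and 24.5% in lon1-2atg5-1 and 34.8%, 34.3% and 36.7% in atg5-1, without overlap and with little spread between the lon1-2atg5-1 libraries. These sums are descriptions without a test, and in whole seedlings a change in the number of cells of a type and a change in RNA per cell cannot be told apart.

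**Figure D4:**
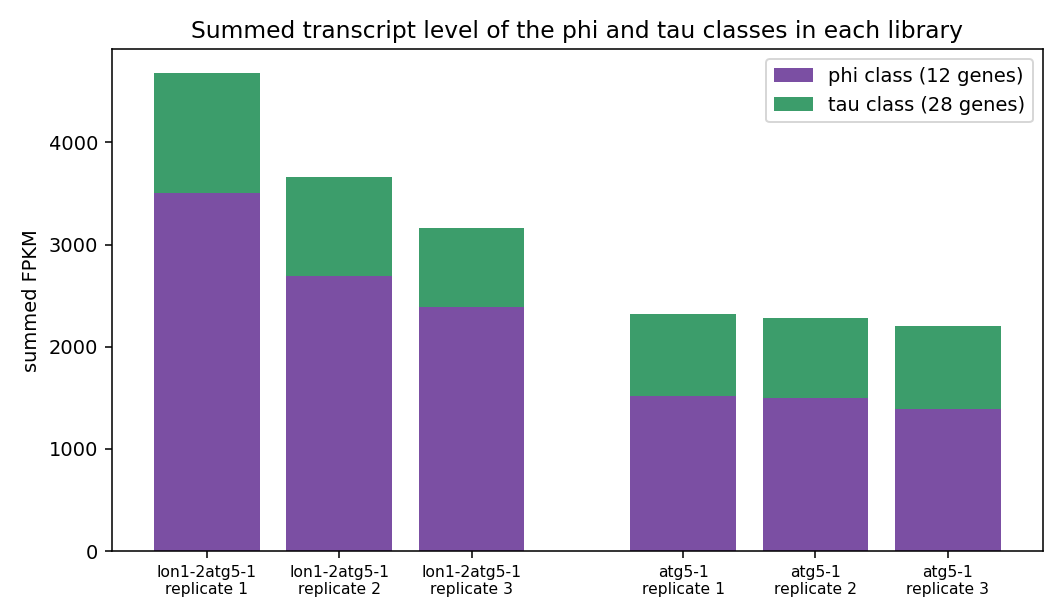
Bars are the summed FPKM of the 12 phi and 28 tau genes in each library, stacked. The lon1-2atg5-1 totals are 4674, 3665 and 3161 FPKM, all above the atg5-1 totals of 2324, 2284 and 2202 FPKM.

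Each lon1-2atg5-1 library was then set against the mean of the atg5-1 libraries, to show which members the spread between replicates touched. For GSTF6, GSTF7, GSTF5, GSTU4 and GSTU3 all lon1-2atg5-1 libraries lay far above, whichever was taken. For 9 members, GSTU1, GSTU2, GSTU7, GSTU9, GSTU10, GSTU19, GSTU22, GSTU24 and GSTF11, replicate 1 lay above the atg5-1 mean and replicate 3 below it. GSTU22 had 290, 164 and 98 counts in lon1-2atg5-1 and 244, 217 and 232 in atg5-1. Of the 22 members called, 20 kept their call with each library left out in turn, and GSTU25 and GSTU26 did not. The 20 include GSTU3, GSTU11 and GSTF13, which entered the test through the genotype in which they are high.

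**Figure D5:**
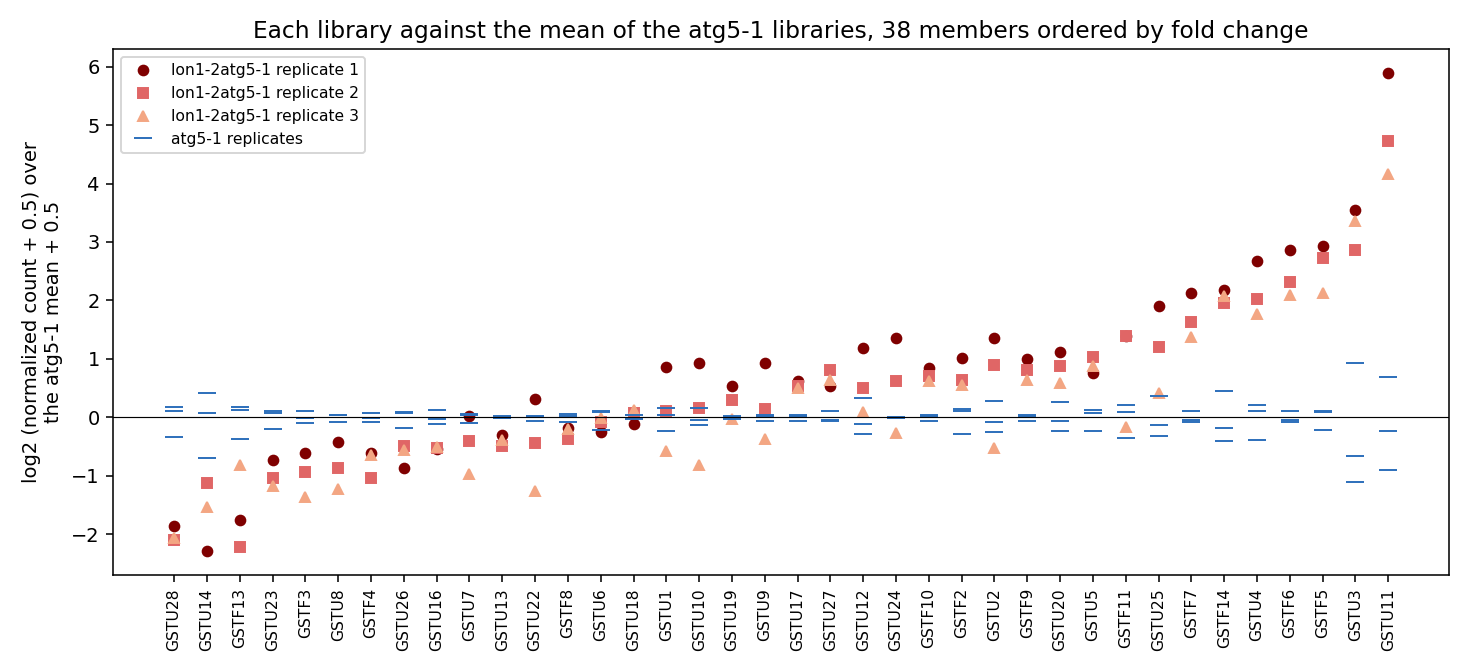
The log2 ratio of each library's normalized count to the mean of the 3 atg5-1 libraries, with 0.5 added to both, is plotted for the 38 members tested, ordered by fold change; filled symbols are the lon1-2atg5-1 replicates and dashes the atg5-1 replicates. Replicate 1 of lon1-2atg5-1 is the highest of its genotype for 30 of the 38 members.

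Promoter letters were counted in members and in all genes. Windows from 250 bases before to 50 after the start held TGACG in 17 of 40 members (42.5%), against 23.1% of the same windows of 27443 genes, on either strand. TTGAC, which overlaps TGACG in the run TTGACG, stood in 60.0% of members and 50.5% of all windows. CACGTG stood in 7.50% of members, among them the neighbours GSTU17 and GSTU18, and 7.68% of all windows. Among members tested, 7 of 17 with TGACG were higher and 2 lower, and 7 of 21 without it were higher and 6 lower, where 27.7% of all genes tested were called. The median log2 fold change was 0.34 with TGACG and 0.56 without it. At most 25 bases apart, a pair of TGACG copies stood in GSTU1 and GSTU7, or 5.0% of members, against 1.16% of all windows. These windows are shown because such pairs resemble the as-1 element through which TGA factors act, and neither gene was called (60 bases each, TAIR10.1, minus strand, GSTU1 chr2:12632569-12632628, GSTU7 chr2:12618930-12618989, TGACG on either strand in capitals).
GSTU1: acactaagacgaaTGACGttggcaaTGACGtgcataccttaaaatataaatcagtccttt
GSTU7: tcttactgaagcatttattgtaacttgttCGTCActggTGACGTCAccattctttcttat
The mitochondrial dysfunction motif, known from nuclear genes that respond to impaired mitochondria, stood in the window of GSTF4 alone, against 1.43% of all windows.

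Genes that work with or beside the family were given by lists. Of 12 genes of other glutathione S-transferase classes 2 were higher and 1 lower: GSTL1 of the lambda class at a log2 fold change of 2.18, DHAR1, a dehydroascorbate reductase, at 0.82, and TCHQD at −1.13. Of 11 tested genes of glutathione synthesis, reduction and breakdown 2 were higher, GGCT2;1, a gamma-glutamyl cyclotransferase, at 1.36 and GSH1, which makes gamma-glutamylcysteine, at 0.71, and none was lower. Of 7 ABCC transporters ABCC6 and ABCC3 were higher, at 0.98 and 0.63. Median log2 fold changes of these lists were 0.09, 0.26 and 0.17, against −0.00034 over all genes tested. The share called was 25%, 18.2% and 28.6%, near or below the 27.7% of all genes tested.

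Of 19 genes of the xenobiotic response outside the family, 8 were higher and 1 lower, or 47.4% called, with a median of 0.30. The transporter gene ABCG40 had a log2 fold change of 4.12, the glucosyltransferase gene UGT74E2 of 2.88 and the efflux transporter gene DTX3 of 2.21, while UGT75B1 was lower at −0.63. In these genes the same library stood out, since replicate 1 of lon1-2atg5-1 was the highest of its genotype in 18 of 19. Of the 10 genes of TGA factors and their coactivator SCL14, 3 were lower, TGA9 at −1.47, TGA10 at −1.25 and TGA1 at −0.69, and TGA7 was higher at 0.61, or 40% called.

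Markers of tissues were counted by the same rule. Of 9 root markers 7 were lower and 1 higher (88.9% called, against 27.7% of all genes tested), and TIP2;3 was at −4.42. NRT2.1, the higher one, had 3, 3 and 1 counts in atg5-1 and entered the test through lon1-2atg5-1. The summed level of the root markers was 1326 to 1508 FPKM in lon1-2atg5-1 and 1483 to 1648 FPKM in atg5-1. PYK10, which was not called (−0.03), made up most of that sum, and the other 8 root markers summed to 44.6 to 55.8 FPKM in lon1-2atg5-1 and 125.9 to 169 FPKM in atg5-1. Of 8 green shoot markers 1 was higher (12.5% called), and their sum was 38920 to 42340 FPKM in lon1-2atg5-1 and 36920 to 38530 FPKM in atg5-1. Of 6 seed storage and flower markers 5 were tested, and 4 were higher (80% called), all of them seed storage genes. These 4 had 0 to 6 counts in each atg5-1 library, so they entered the test through lon1-2atg5-1, where they are high. The list summed to 8.30 to 15.4 FPKM in lon1-2atg5-1 and 0.542 to 0.605 FPKM in atg5-1. The flower marker AP1 had 2, 0 and 1 counts in lon1-2atg5-1 and 0, 0 and 1 in atg5-1. The part of these differences in the values of the glutathione S-transferases was not tested.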

How the data were processed

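Counts per gene as deposited by the authors are raw; the submitters' processing notes name Trimmomatic, HISAT2, HTSeq and Cufflinks and the TAIR10 build. FPKM values as deposited by the authors could be rebuilt from counts, gene lengths and library totals, with a largest relative error of 6.12e-08. Use of strand in counting is not given in the sources used here, so genes that overlap on opposite strands are uncertain. Samples were grouped by their labels. The series describes biological triplicates without naming separate cultures. P-values measure the spread between these libraries.

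Counts were filtered with filterByExpr, which left 20157 of 27444 genes, then TMM-normalized. The test was edgeR's quasi-likelihood F-test (edgeR 4.0.16, R 4.3.3), and its p-values were adjusted over all genes tested by the Benjamini-Hochberg method. Standard errors were taken as the size of the log2 fold change over the root of its F statistic and can be too small at low counts. Steps were tested on simulated counts with a single dispersion for all genes and both genotypes. These simulations do not cover the unequal spread of the genotypes seen here. Members and lists were chosen with earlier results of these data known. All 40 members were named; those called with an absolute log2 fold change of at least 1, the 3 most abundant of each class and those moving alone against their cluster received full values, as did some others, and up to 3 of the called genes with the largest changes were named per list, with UGT75B1 and TGA7 added after their values were seen. Coding sequences were aligned with Biopython 1.88 in place of proteins and shared exons found with BLAST 2.17.0. Sequences are from the RefSeq annotation of TAIR10.1, and gene lengths implied by the files equalled its exonic lengths for 23819 of 23819 genes with a count. Intervals of count ratios cover counting error only. Alternatives were DESeq2 1.42.0, its size factors, library size alone, other filters, limma 3.58.1 on log2(FPKM + 1) and log2(FPKM + 0.1), the replicate block, other call thresholds and each library left out. Figures were drawn with matplotlib 3.10.9. One upstream sequence is not reported here.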

Additional observations from a re-analysis of the deposited data

How the results depend on the processing

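Of the 38 members tested, all kept their direction and call with DESeq2 size factors, with library size alone and without a filter on low counts, and 37 with DESeq2, where GSTF11 was called as well. With at least 10 counts in every library 35 members could be tested, and each kept its call. With a fold change over 2 the counts were 8 higher and 3 lower over the family, 4 and 2 in the tau class and 4 and 1 in the phi class, and 2840 of all genes were called in place of 5588; with no fold change threshold 10781 were called. Leaving out each library in turn gave 13 to 21 members called higher and 7 to 9 lower. Over all 20331 to 20401 genes tested in these fits, 2564 to 3249 were called higher and 2509 to 3074 lower. Both counts were largest without replicate 3 of lon1-2atg5-1. In the tau class 6 to 13 were called higher, the 13 without replicate 3 of lon1-2atg5-1. Over these fits the log2 fold change ran from −0.19 to 0.54 for GSTU1, −0.086 to 0.60 for GSTU9 and −0.25 to 0.61 for GSTU10, lowest without replicate 1 and highest without replicate 3 of lon1-2atg5-1. The near-zero value of GSTU18 ran from −0.018 without replicate 3 to 0.10 without replicate 1 of lon1-2atg5-1 and was −0.00063 with limma on log2(FPKM + 1), with and without a filter, and −0.00068 with a pseudocount of 0.1; the cause was not tested.

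Deviations of libraries that share a replicate number correlated at −0.037, −0.115 and −0.010, so the numbers were not taken to pair the libraries. The replicate block gave 14 members higher and 8 lower and changed no member's call. With 3 libraries a genotype and few counts for GSTU3, GSTU11, GSTU14, GSTU28 and GSTF13 in their lower genotype, the size of their fold changes is less certain than their direction.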
